A study of Mus musculus with 8 samples.

Results

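The nuclear genes for the mitochondrial respiratory chain and the ATP synthase were compared between macrophages labelled positive and negative for Il19-tdT, a reporter of the Il10-family cytokine gene Il19. Members were chosen by symbol from the 17823 genes of the deposited count table: names that start with Ndufa, Ndufb, Ndufc, Ndufs, Ndufv, Uqcr, Atp5 or Cox and a digit, with Sdha, Sdhb, Sdhc, Sdhd and Cycs, and without the Ndufaf assembly factors. Of 92 genes with such names, 88 had at least 10 counts in at least 4 of the 8 libraries, and all 88 were among the 12610 genes tested. They comprise 36 subunits of complex I, 4 of complex II, 8 of complex III, Cycs, 13 of complex IV and 14 of complex V. The other members are 10 assembly or supercomplex factors of complex IV and 2 genes, Atp5s and Atp5sl, whose names resemble subunits. Cox6b2, Ndufa4l2, Atp5g2 and Cox4i2 were below the count filter. Complexes I and IV also have subunits encoded by mitochondrial DNA, as do complexes III and V, and these were not analysed here.

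The libraries hold polyadenylated RNA of macrophages grown from C57BL/6 mouse bone marrow over 7 days with 20 ng of M-CSF. The cells then received lipopolysaccharide (LPS) of Escherichia coli O111:B4 at 1 µg/ml, a bacterial product that activates macrophages through Toll-like receptor 4. Both groups are defined by the reporter (tdT positive and tdT negative) and both received LPS. The groups are 4 tdT-positive and 4 tdT-negative libraries, numbered 1 to 4 in each. No library without LPS is among them, and the sources used here do not give the construction of the reporter, the way positive and negative cells were separated or the duration of LPS treatment.

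Complexes I to IV pass electrons from NADH and succinate to oxygen in the inner mitochondrial membrane and, except for complex II, pump protons, and complex V uses the proton gradient to make ATP. Cytochrome c carries electrons from complex III to complex IV. Macrophages stimulated with LPS are known to shift from oxidative phosphorylation towards glycolysis, and oxidation of succinate by complex II is known to feed the production of reactive oxygen species in such cells. The nuclear-encoded subunits are held to be controlled in part together, through the transcription factors NRF1, GABPA (an ETS factor) and YY1 and coactivators of the PGC-1 family.

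The 8 libraries held 49850537 to 58516454 counts, and 3 counts corresponded to 0.049 to 0.0696 CPM, the count relative to the library total scaled by the trimmed mean of M values. Il19 lay between 145 and 234 CPM in tdT-positive and between 9.17 and 17 CPM in tdT-negative libraries, so the labels and the reporter gene went together in all 8. All 9 macrophage markers used (Adgre1, Cd68, Csf1r, Itgam, Mertk, Lyz2, Fcgr1, Cd14 and Spi1) were detected, with summed levels of 14598 to 18958 CPM in the tdT-positive group and 12332 to 21993 CPM in the tdT-negative group. A pair of libraries stood apart in ways that touch the genes described here. In tdT-positive replicate 3 the ribosomal RNA gene Rn45s took 12.3% of counts, against 0.302% to 0.734% elsewhere, and in tdT-negative replicate 3 most members were at their highest level. Over all genes, libraries of the same number varied together (r of 0.558 to 0.627, but 0.279 in number 2). Over the members alone, r was 0.606 in number 2 and 0.0378 to 0.109 in the others. Log2 fold changes (tdT positive over tdT negative), SEs and adjusted p are given from the edgeR quasi-likelihood fit blocked on replicate number, with Benjamini-Hochberg adjustment over all 12610 genes. A gene is said to have fallen or risen where its adjusted p was under 0.05 in that fit. The planned test was the fit on group only, and the blocked fit was its alternative.

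The respiratory chain and ATP synthase members were at slightly lower levels in the tdT-positive libraries, by a margin that passed the test in 27 members, and in edgeR only when libraries of the same number were compared. Their summed level was 5310.4 ± 237 CPM in the tdT-positive group and 6445 ± 599 CPM in the tdT-negative group, or 82.4% of the tdT-negative level (mean ± SD, n = 4 each, as in all values given with ±). By library the sum was 5335, 5005, 5583 and 5318 CPM in tdT-positive replicates 1 to 4, against 6135, 6132, 7344 and 6169 CPM in tdT-negative replicates 1 to 4, so every tdT-positive library lay below every tdT-negative one. With the replicate block, 27 of the 88 members fell and 0 rose, the calls amounting to 30.7% of them, where 7.81% of all genes tested were called lower and 8.03% higher. Without the block 0 members passed (edgeR, smallest adjusted p = 0.0641), where 0.0238% of all genes did, 33 members had an unadjusted p under 0.05, as did 16.3% of all genes. The DESeq2 Wald test without the block called 18 members, all lower, where it called 4.71% of all genes lower.

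The log2 fold change was below 0 for 85 of 88 members and for all 76 subunits including Cycs, and its median over the members was -0.26, against 0.0051 over all genes tested. In 31 members, 35.2% of them, the 4 tdT-positive libraries all lay below the 4 tdT-negative ones, a separation seen in 5.92% of all genes tested, and no member showed the opposite separation, which 5.46% of all genes showed. The 3 members with a fold change above 0 were Cox11, Cox15 and Atp5sl, none of which passed and none of which encodes a subunit. The number of calls depended on single numbers: without replicate 2 in both groups 0 members passed, without replicate 3 only Atp5o did, without replicate 1 there were 8 and without replicate 4 there were 51, all lower. In these fits 2.01% (without replicate 2), 0.993% (without 3), 4.72% (without 1) and 10.4% (without 4) of all genes tested were called lower. Bulk RNA cannot tell fewer cells of a type from less RNA per cell.

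**Figure D1:**
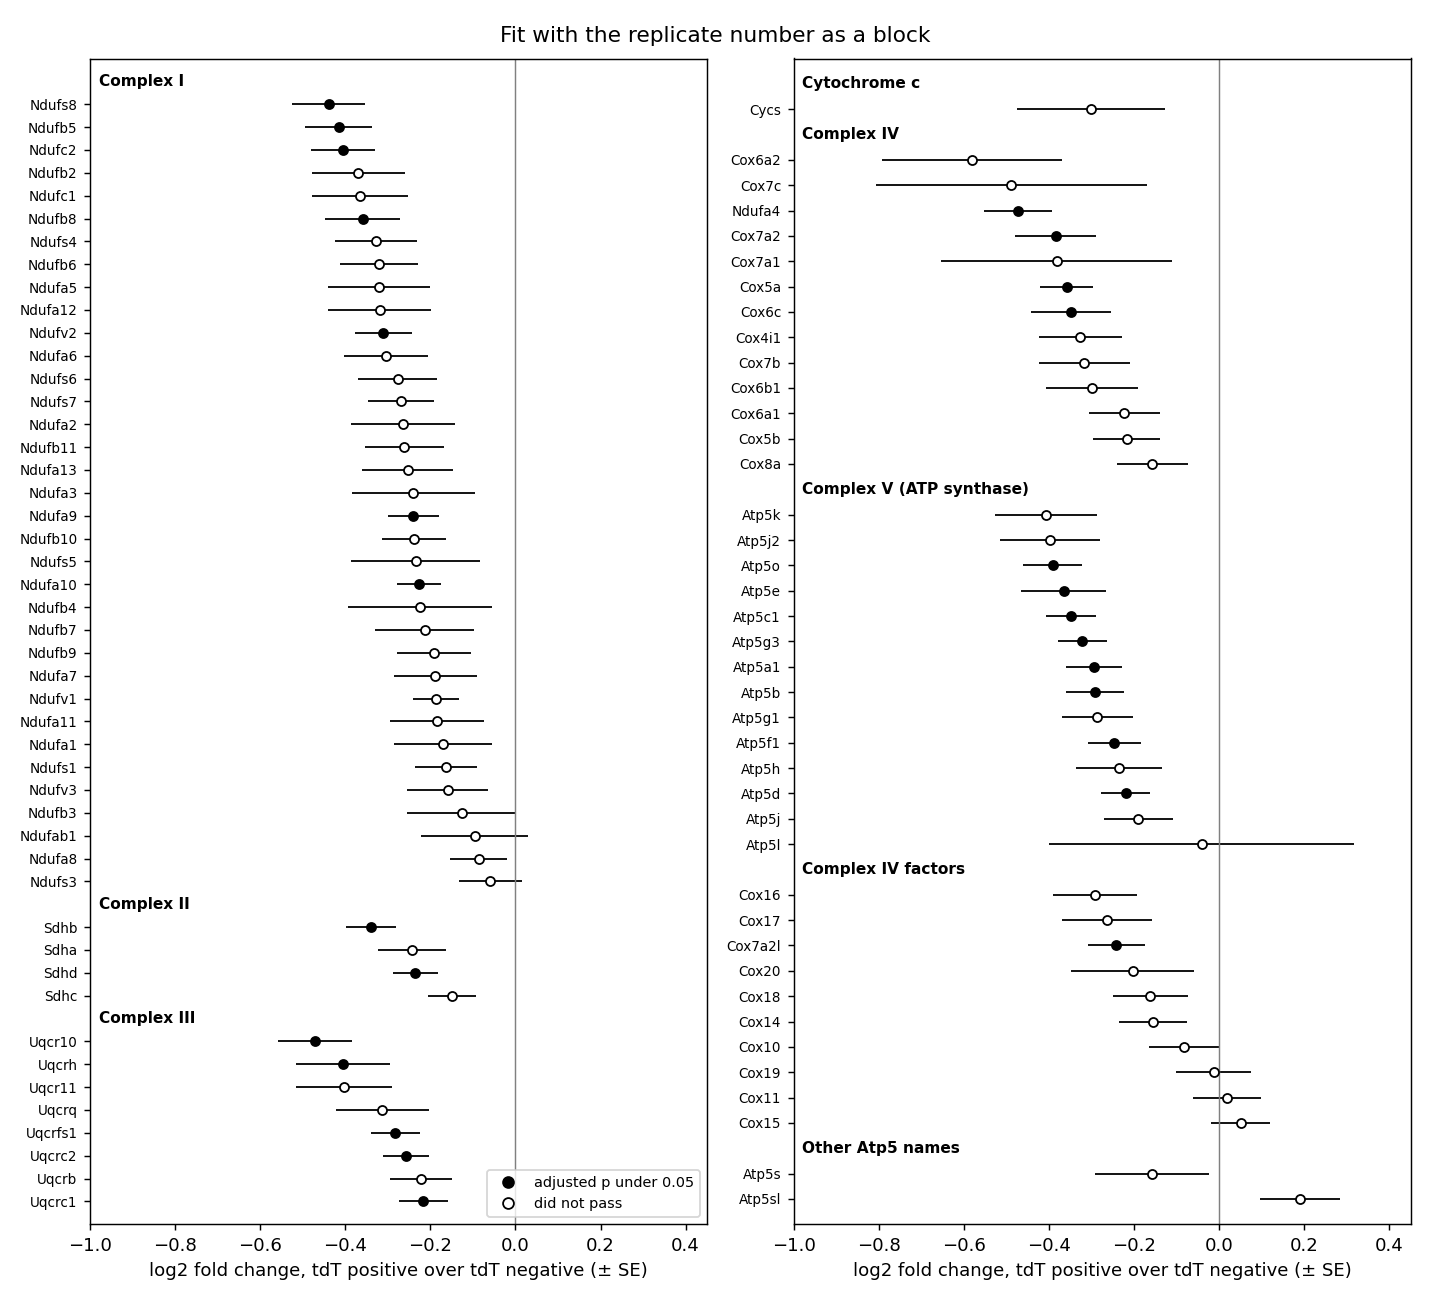
Log2 fold change of 87 of the 88 members (tdT positive over tdT negative, points) with its SE (bars), in the fit blocked on replicate number, grouped by complex and ordered by size. Filled points passed an adjusted p under 0.05: all 27 lie left of 0, and the open points of Cox11, Cox15 and Atp5sl lie right of it.

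The members' promoters were searched for letters of the factors named above. RefSeq windows of 300 bases (250 before to 50 after the start, GRCm38.p6) were matched for 74 of the 88 members, 81 windows in all. On both strands, GCATGCGC, the core of NRF1 sites, was in 12.3% of the members' windows and 2.71% of all 32851 windows of the table. CCGGAAG, bound by GABPA and other ETS factors, was in 27.2% and 8.86%, and AAGATGGCG, bound by YY1, in 12.3% and 1.4%. TATAAA was in 8.64% of the members' windows and 13.6% of all windows. The full set of windows covers 27025 genes, more than the 12610 tested here, so the comparison is not with expressed genes alone. Matches of different motifs overlapped in 0 of the members' windows. Of 33 members with at least 1 of the NRF1, ETS and YY1 letters, 7 fell, and of 41 with none, 17 fell. Over all genes tested, 7.81% were called lower. Whether the letters bear on the difference between the groups was not tested.

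The windows of 4 members that fell, 1 each from complexes I, II, III and V, show how these letters lie near the start site. They were picked because they hold the letters: each has the smallest p among such members of its complex that fell. Members with a smaller p and none of the letters, such as Ndufb5, Ndufc2 and Atp5c1, were passed over. No complex IV subunit that fell had a matched window with these letters. They are given 5′ to 3′ with the NRF1, ETS and YY1 letters of either strand in capitals, for Ndufs8 (chr19:3912725-3913024, minus strand), Sdhb (chr4:140961021-140961320, plus strand), Uqcrc1 (chr9:108936398-108936697, plus strand) and Atp5e (chr2:174464052-174464351, minus strand).
Ndufs8: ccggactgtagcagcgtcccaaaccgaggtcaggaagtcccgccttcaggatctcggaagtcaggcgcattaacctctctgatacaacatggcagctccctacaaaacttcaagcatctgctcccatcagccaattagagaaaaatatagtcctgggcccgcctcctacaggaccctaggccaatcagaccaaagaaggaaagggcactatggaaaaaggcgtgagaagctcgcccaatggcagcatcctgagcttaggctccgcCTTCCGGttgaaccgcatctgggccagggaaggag
Sdhb: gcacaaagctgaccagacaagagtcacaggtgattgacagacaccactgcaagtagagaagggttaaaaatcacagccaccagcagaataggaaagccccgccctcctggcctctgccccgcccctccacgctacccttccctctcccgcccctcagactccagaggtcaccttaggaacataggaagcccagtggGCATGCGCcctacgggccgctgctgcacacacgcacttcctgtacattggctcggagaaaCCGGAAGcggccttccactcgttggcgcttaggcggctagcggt
Uqcrc1: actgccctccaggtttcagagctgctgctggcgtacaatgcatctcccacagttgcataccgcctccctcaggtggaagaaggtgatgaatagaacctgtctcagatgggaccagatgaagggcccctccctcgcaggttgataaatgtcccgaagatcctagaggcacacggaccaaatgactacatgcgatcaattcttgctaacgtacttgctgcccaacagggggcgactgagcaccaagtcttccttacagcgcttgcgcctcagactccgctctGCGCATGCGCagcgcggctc
Atp5e: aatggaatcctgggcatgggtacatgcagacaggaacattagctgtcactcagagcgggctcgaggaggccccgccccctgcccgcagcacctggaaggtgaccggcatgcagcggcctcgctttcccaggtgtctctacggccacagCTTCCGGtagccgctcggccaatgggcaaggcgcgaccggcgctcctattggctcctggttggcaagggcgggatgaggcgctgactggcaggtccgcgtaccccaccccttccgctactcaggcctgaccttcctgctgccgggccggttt
Sdhb holds the NRF1 and the ETS letters, Uqcrc1 the NRF1 letters on both strands in a single run, and Ndufs8 and Atp5e the ETS letters. A match describes these letters and shows no binding.

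Per kb of gene length, the typical subunit of complex I was at a lower level than that of complexes II to V, a difference that was not tested. The median of the mean level over all 8 libraries was 37.7 CPM per kb over the 36 subunits of complex I, 93.4 over the 4 of complex II, 90.8 over the 8 of complex III, 109 over the 13 of complex IV and 88.1 over the 14 of complex V. The highest members were Atp5b, the catalytic subunit of the ATP synthase, at 365 CPM per kb in the tdT-positive group and 446 CPM per kb in the tdT-negative group, and Cox4i1, the widely expressed isoform of a complex IV subunit, at 241 CPM per kb in the tdT-positive group and 305 CPM per kb in the tdT-negative group. Cycs, Cox7c and Atp5l were near the bottom, at 1.03, 1.08 and 0.617 CPM per kb in the tdT-positive and 1.27, 1.52 and 0.652 in the tdT-negative libraries, although all of them encode parts of the chain or the synthase with no other widely expressed gene. Many genes of this class have processed pseudogene copies in the mouse genome, and the sources used here do not say how reads that match several places were counted, so the levels of these low members are uncertain.

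**Figure D2:**
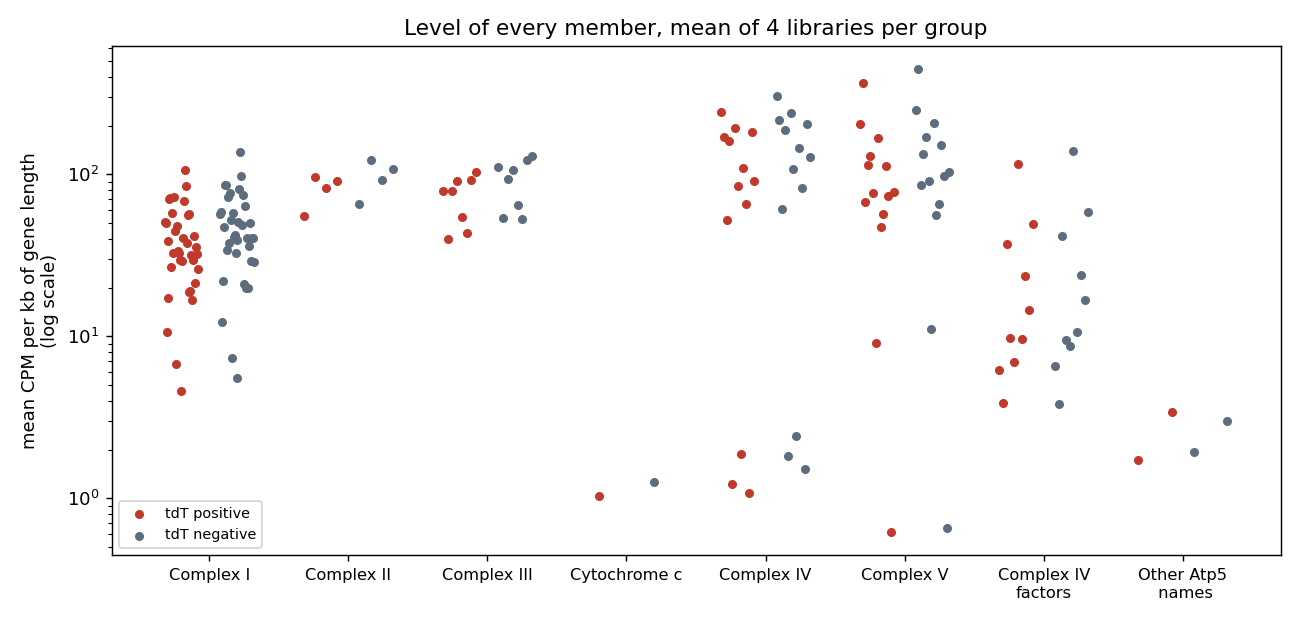
Mean level of each of the 88 members in the 4 tdT-positive (left in each pair) and 4 tdT-negative libraries (right), in CPM per kb of gene length on a log scale, by complex. Cycs, Cox6a2, Cox7a1, Cox7c and Atp5l lie below all other subunits, with tdT-positive levels of 0.617 (Atp5l) to 1.88 CPM per kb (Cox7a1), and Atp5b is the highest.

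Complex I, which oxidises NADH and is the largest complex of the chain, fell in 7 of its 36 subunits, and none rose. That is 19.4%, where 7.81% of all genes tested were called lower. The summed level was 1254 ± 63 CPM in the tdT-positive group and 1498 ± 223 CPM in the tdT-negative group (mean ± SD, n = 4 each), and by number the tdT-positive library held 90.1, 83.2, 71.7 and 94% of its tdT-negative counterpart in numbers 1 to 4. The median log2 fold change was -0.24. Among the core subunits, which form the arm with the flavin and the iron-sulfur clusters, Ndufs8 and Ndufv2 fell. Ndufs8 (chromosome 19, 3908863 to 3912774 of GRCm38), an iron-sulfur subunit, had 21.8, 21.5, 22.2 and 22.2 CPM in tdT-positive replicates 1 to 4, against 27.4, 29, 36.4 and 26.9 CPM in tdT-negative replicates 1 to 4 (log2 fold change -0.44 with an SE of 0.086, adjusted p = 0.0188). The groups did not overlap and the tdT-positive libraries were nearly level with each other. Ndufv2, in the module that takes electrons from NADH, had 52.9, 50.9, 55.2 and 52.2 CPM in the tdT-positive and 63.3, 60.9, 78.3 and 60.9 CPM in the tdT-negative libraries (log2 fold change -0.31 with an SE of 0.066, adjusted p = 0.024). Its tdT-negative replicate 3 was the highest library and the groups again did not overlap. Ndufs1, Ndufs3, Ndufs7 and Ndufv1 did not pass, with log2 fold changes between -0.27 and -0.060.

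The 5 supernumerary subunits of complex I that fell, out of 29, were Ndufb5, Ndufc2, Ndufb8, Ndufa9 and Ndufa10. Ndufb5 and Ndufc2 belong to the membrane arm. Ndufb5 had 28.4, 27.3, 30.6 and 29.9 CPM in the tdT-positive and 33.2, 35.9, 47.7 and 39.5 CPM in the tdT-negative libraries (log2 fold change -0.42 with an SE of 0.078, adjusted p = 0.0171), and Ndufc2 had 38.9, 33.4, 39.4 and 42.2 CPM in the tdT-positive and 45.5, 45.9, 60 and 52.9 CPM in the tdT-negative libraries (log2 fold change -0.40 with an SE of 0.076, adjusted p = 0.0169). In both genes all tdT-positive libraries lay below all tdT-negative ones. Ndufb8, a membrane-arm subunit with the highest level per length in complex I, was at 67.8 ± 3.11 CPM in the tdT-positive group and 87.4 ± 11.3 CPM in the tdT-negative group (log2 fold change -0.36 with an SE of 0.088, adjusted p = 0.036). Ndufa9, which sits near the quinone site, fell by 0.24 and Ndufa10 by 0.23 on the log2 scale. The other supernumerary subunits ranged in log2 fold change from -0.37 (Ndufb2, adjusted p = 0.0627) to -0.087 (Ndufa8, adjusted p = 0.415).

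Complex II, succinate dehydrogenase, which links the citrate cycle to the chain, was lower in its summed level by nearly the same share in every number. Its summed level was 476 ± 29.1 CPM in the tdT-positive group and 564 ± 24.3 CPM in the tdT-negative group, and the tdT-positive library held 86.5, 84, 85.1 and 81.7% of its counterpart in numbers 1 to 4. Sdhb (chromosome 4, 140961271 to 140979198 of GRCm38), the iron-sulfur subunit whose promoter is printed above, had 109, 101, 106 and 95.9 CPM in tdT-positive replicates 1 to 4, against 132, 127, 147 and 117 CPM in tdT-negative replicates 1 to 4 (log2 fold change -0.34 with an SE of 0.060, adjusted p = 0.0143). Every tdT-positive library lay below every tdT-negative one, with an exact two-sided permutation p of 0.0286, the smallest that 70 arrangements of 4 and 4 libraries allow. This p restates the lack of overlap, takes no account of the replicate numbers and is not adjusted. Sdhd, a membrane anchor, had 118, 112, 132 and 108 CPM in the tdT-positive and 137, 131, 160.1 and 126 CPM in the tdT-negative libraries (log2 fold change -0.24 with an SE of 0.053, adjusted p = 0.0287). Its tdT-positive replicate 3 lay above tdT-negative replicates 2 and 4, so the groups overlapped. Sdha, the flavoprotein that oxidises succinate, had 163, 157, 169 and 142 CPM in the tdT-positive and 189, 186, 174 and 198 CPM in the tdT-negative libraries (log2 fold change -0.24 with an SE of 0.079, adjusted p = 0.0801) and did not pass, although its groups did not overlap. Sdhc, the other anchor, was at 97.3 ± 3.02 CPM in the tdT-positive group and 108 ± 6.98 CPM in the tdT-negative group and did not pass (adjusted p = 0.116). All 4 genes were lower in all 4 numbers, as were 2469 of all 12610 genes tested, but single genes were less even than their sum. The log2 differences in numbers 1 to 4 were -0.21, -0.24, -0.048 and -0.48 for Sdha and -0.27, -0.33, -0.47 and -0.29 for Sdhb. For Sdhc they were -0.13, -0.22, -0.19 and -0.055, and for Sdhd -0.21, -0.23, -0.28 and -0.22.

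Complex III, which passes electrons from ubiquinol to cytochrome c, fell in 5 of 8 subunits, and all 8 were lower in all 4 numbers. The calls amount to 62.5%, where 7.81% of all genes tested were called lower. Of all 12610 genes tested, 2469 were lower in all 4 numbers. The summed level was 505 ± 35 CPM in the tdT-positive group and 618 ± 73.3 CPM in the tdT-negative group, or 87.5, 81.7, 75.8 and 82.9% of the counterpart in numbers 1 to 4. All 3 core members fell. Uqcrc2, a core protein, had 101, 95.6, 107 and 105 CPM in the tdT-positive and 117, 113, 126 and 131 CPM in the tdT-negative libraries (log2 fold change -0.26 with an SE of 0.054, adjusted p = 0.0225), without overlap. Uqcrfs1, the Rieske iron-sulfur protein, was at 57.2 ± 6.59 CPM in the tdT-positive group and 69.9 ± 11.1 CPM in the tdT-negative group (log2 fold change -0.28 with an SE of 0.059, adjusted p = 0.0219), and Uqcrc1, the other core protein, at 151 ± 21.7 CPM in the tdT-positive group and 175 ± 18 CPM in the tdT-negative group (log2 fold change -0.22 with an SE of 0.058, adjusted p = 0.0461). In both of these the groups overlapped while every number went the same way. Of the small subunits, Uqcr10 had 34.1, 30.7, 37.1 and 38 CPM in the tdT-positive and 40.8, 41.6, 63 and 51 CPM in the tdT-negative libraries (log2 fold change -0.47 with an SE of 0.087, adjusted p = 0.0163), and Uqcrh, the hinge protein, fell by 0.41 (adjusted p = 0.0494). Uqcr10 had the largest fall of the complex, and its groups did not overlap. Uqcr11, Uqcrq and Uqcrb did not pass, with log2 fold changes of -0.40, -0.31 and -0.22; Uqcrq had the highest level per length of the complex. Cyc1, cytochrome c1 of the same complex, lies outside the symbol rule and was at 69.1 ± 7.92 CPM in the tdT-positive group and 84.5 ± 13.3 CPM in the tdT-negative group (adjusted p = 0.0598). Cycs, the soluble carrier, had 4.03, 2.77, 2.64 and 3.2 CPM in the tdT-positive and 3.54, 3.49, 4.68 and 3.82 CPM in the tdT-negative libraries, was higher in number 1 and lower in the others, and did not pass (adjusted p = 0.271).

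Complex IV, cytochrome c oxidase, which reduces oxygen, had the largest median fall of the 5 complexes in this fit, -0.35 on the log2 scale. With the gene length trend taken out, as described below, its median was -0.17 and no longer the lowest. Those of complexes I, II, III and V were then -0.11, -0.19, -0.18 and -0.15. Differences between complexes were not tested. Its summed level was 851 ± 49.9 CPM in the tdT-positive group and 1061 ± 148 CPM in the tdT-negative group, and the tdT-positive library held 87.8, 79.7, 66.2 and 91.3% of its counterpart in numbers 1 to 4. Of 13 subunits, 4 fell and none rose, or 30.8%, where 7.81% of all genes tested were called lower. With the length correction the share was 7.69%, near the 7.95% of all genes tested called lower in that fit. Ndufa4, named as a complex I subunit but now placed in complex IV, had 48.1, 42.6, 46.3 and 42.4 CPM in tdT-positive replicates 1 to 4, against 58.3, 54.3, 73.9 and 63.8 CPM in tdT-negative replicates 1 to 4 (log2 fold change -0.47 with an SE of 0.080, adjusted p = 0.013). The groups did not overlap, and all 4 numbers went the same way. Cox5a had 116, 109, 126 and 117 CPM in the tdT-positive and 149, 150.3, 166 and 136 CPM in the tdT-negative libraries (log2 fold change -0.36 with an SE of 0.063, adjusted p = 0.014), also without overlap. Cox7a2 was at 82.3 ± 7.51 CPM in the tdT-positive group and 109 ± 27.2 CPM in the tdT-negative group (log2 fold change -0.38 with an SE of 0.095, adjusted p = 0.0365) and Cox6c at 42.6 ± 3.96 CPM in the tdT-positive group and 54.5 ± 8.68 CPM in the tdT-negative group (log2 fold change -0.35 with an SE of 0.094, adjusted p = 0.0469), and in both, tdT-negative replicate 3 was the highest library, at 149.8 and 67.5 CPM. Cox4i1 had 183, 177, 179.8 and 197 CPM in the tdT-positive and 209, 214, 289.5 and 218 CPM in the tdT-negative libraries, without overlap, and did not pass (adjusted p = 0.0628). Cox6b1 and Cox5b likewise did not overlap and did not pass, with log2 fold changes of -0.30 and -0.22.

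Several complex IV subunits exist as isoforms of different genes, and in these macrophages the widely expressed ones were dominant in both groups. The isoforms Cox6a2 and Cox7a1, known from heart and skeletal muscle, averaged 0.808 and 0.689 CPM in the tdT-positive group and 1.2 and 0.891 CPM in the tdT-negative group. Their counterparts Cox6a1 and Cox7a2 averaged 85.8 and 82.3 CPM in the tdT-positive group and 100.3 and 109 CPM in the tdT-negative group. Cox6a2 had the lowest log2 fold change of all members, -0.58, with a wide error (SE 0.21, adjusted p = 0.106). Cox4i2, the isoform of Cox4i1 known to be induced by low oxygen, summed to 17 counts in the tdT-positive group and 41 in the tdT-negative group, and Cox6b2, known from testis, to 8 in the tdT-positive group and 21 in the tdT-negative group. Ndufa4l2, a relative of Ndufa4 that is induced by hypoxia, had 1, 6, 0 and 4 counts in tdT-positive and 5, 13, 11 and 86 counts in tdT-negative replicates 1 to 4. Most of its counts thus came from tdT-negative replicate 4. Cox8a did not pass (log2 fold change -0.16, adjusted p = 0.241).

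The factors that build complex IV were nearer to level than its subunits, a difference that was not tested. None of the 9 assembly factors passed, and their median log2 fold change was -0.16, against -0.35 over the 13 subunits. Cox11, which helps to insert copper, had 8.29, 7.78, 8.86 and 10.3 CPM in the tdT-positive and 8.34, 8.01, 8.16 and 10.2 CPM in the tdT-negative libraries, and its groups overlapped (log2 fold change 0.019, SE 0.080). Cox15 and Cox10, enzymes of haem A synthesis, had log2 fold changes of 0.051 (SE 0.070) and -0.082 (SE 0.083). With scaling by library totals alone and the block, Cox11 and Cox15 were at -0.059 and -0.027, so their direction depended on the scaling. Cox17, the copper chaperone, was at -0.26 (adjusted p = 0.133), and Cox16 at -0.29 (adjusted p = 0.089). Cox7a2l, a relative of Cox7a2 that joins complexes III and IV into supercomplexes, was at 56.7 ± 4.29 CPM in the tdT-positive group and 67.5 ± 10.5 CPM in the tdT-negative group and was called lower at the edge of the threshold (log2 fold change -0.24 with an SE of 0.067, adjusted p = 0.0499). Atp5sl, known in human cells as a factor for complex I assembly, had the highest log2 fold change of all members, 0.19, and did not pass (adjusted p = 0.209).

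Complex V, the ATP synthase, fell in 8 of 14 subunits, and none rose. The calls amount to 57.1%, where 7.81% of all genes tested were called lower. Its summed level was 1946 ± 93.7 CPM in the tdT-positive group and 2394 ± 112 CPM in the tdT-negative group, and the tdT-positive library held 83.7, 80.3, 81.2 and 79.9% of its counterpart in numbers 1 to 4. All 5 subunits of the F1 part, which makes ATP in the matrix, fell. Atp5b (chromosome 10, 128083307 to 128090388 of GRCm38), which carries the catalytic sites, had 680.1, 669, 730.1 and 661 CPM in tdT-positive replicates 1 to 4, against 820.3, 829.9, 836 and 869 CPM in tdT-negative replicates 1 to 4 (log2 fold change -0.29 with an SE of 0.068, adjusted p = 0.0314). Atp5a1, the alpha subunit, had 489.6, 493, 534 and 469.5 CPM in the tdT-positive and 608, 613, 603 and 609 CPM in the tdT-negative libraries (log2 fold change -0.29 with an SE of 0.067, adjusted p = 0.0287). For both of these abundant transcripts the gap between the groups was larger than the spread within either. Atp5c1, the gamma subunit of the central stalk, had 124, 116, 133 and 115 CPM in the tdT-positive and 148, 145, 178 and 152 CPM in the tdT-negative libraries (log2 fold change -0.35 with an SE of 0.059, adjusted p = 0.0128). Atp5e and Atp5d, the epsilon and delta subunits, fell by 0.37 and 0.22 on the log2 scale (adjusted p = 0.0487 and 0.0436).

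In the peripheral stalk, which holds F1 in place, Atp5o and Atp5f1 fell and Atp5h and Atp5j did not pass. Atp5o, the subunit that confers oligomycin sensitivity, had 64.1, 59.7, 59.5 and 57.9 CPM in the tdT-positive and 79.3, 75.3, 90.9 and 71.9 CPM in the tdT-negative libraries (log2 fold change -0.39 with an SE of 0.070, adjusted p = 0.0148). It is the member that also passed without replicate 3 (log2 fold change -0.33, adjusted p = 0.0493). The rotor ring is made of subunit c, which 3 genes encode with different targeting sequences and the same mature protein. Atp5g3 supplied most of these transcripts, at 121 ± 9.67 CPM in the tdT-positive group and 151 ± 13.3 CPM in the tdT-negative group (log2 fold change -0.32 with an SE of 0.057, adjusted p = 0.0149), against 7.84 and 9.63 CPM of Atp5g1 in tdT-positive and tdT-negative libraries (adjusted p = 0.0606). Atp5g2 had 12 counts in total in tdT-positive and 8 in tdT-negative libraries, and since these genes are alike and have pseudogenes, their shares are uncertain. The small membrane subunits Atp5k and Atp5j2 did not overlap between groups and did not pass (log2 fold changes -0.41 and -0.40, adjusted p = 0.0605 and 0.0607). Atpif1, an inhibitor of ATP hydrolysis by the synthase that the symbol rule does not include, was at 36.6 ± 5.73 CPM in the tdT-positive group and 49.1 ± 6.02 CPM in the tdT-negative group and fell (log2 fold change -0.43 with an SE of 0.11, adjusted p = 0.0438). Of 8 listed subunits and regulators outside the symbol rule, 1 fell, or 12.5%, where 7.81% of all genes tested were called lower. With the length correction described below, 0 of the 8 fell.

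**Figure D3:**
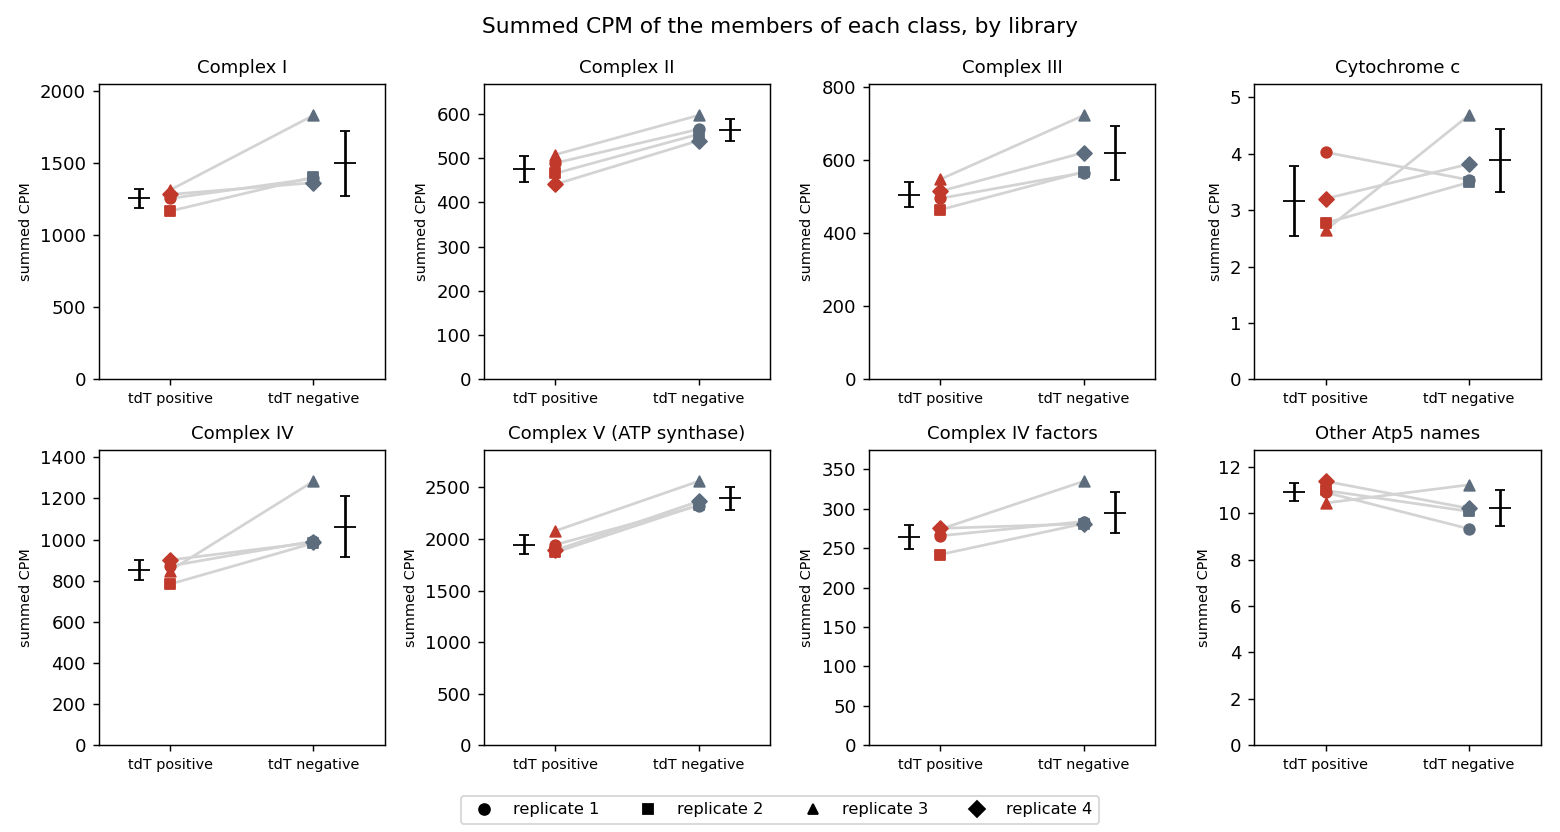
Summed CPM of the members of each class in each library (points; the shape gives the replicate number and grey lines join libraries of the same number) with the mean and SD of 4 libraries (black). In complexes I to V and the complex IV factors each tdT-positive library (left) lies below every tdT-negative one (right), whereas Cycs and the other Atp5 names overlap.

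The median difference over a complex varied with the replicate number for complexes I, III and IV and less for complexes II and V. The median log2 difference over complex I was -0.12, -0.28, -0.56 and -0.065 in numbers 1 to 4, and over complex IV -0.18, -0.31, -0.67 and -0.14. Number 3, whose tdT-negative library was high, had the largest differences in both. Over complex II the medians were -0.21, -0.23, -0.23 and -0.25, and over complex V -0.22, -0.31, -0.44 and -0.27. Over the 5 genes of the F1 part they were -0.25, -0.31, -0.26 and -0.37, with Atp5a1 and Atp5b at their lowest in number 4 and Atp5c1 and Atp5e in number 3. The medians over all genes tested were -0.017, 0.0012, -0.0050 and 0.059. Of the 88 members, 78, 83, 85 and 68 were lower in numbers 1 to 4, and 58 were lower in all of them. Of all 12610 genes tested, 6715, 6278, 6374 and 5426 were lower in numbers 1 to 4, and 2469 were lower in all of them.

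**Figure D4:**
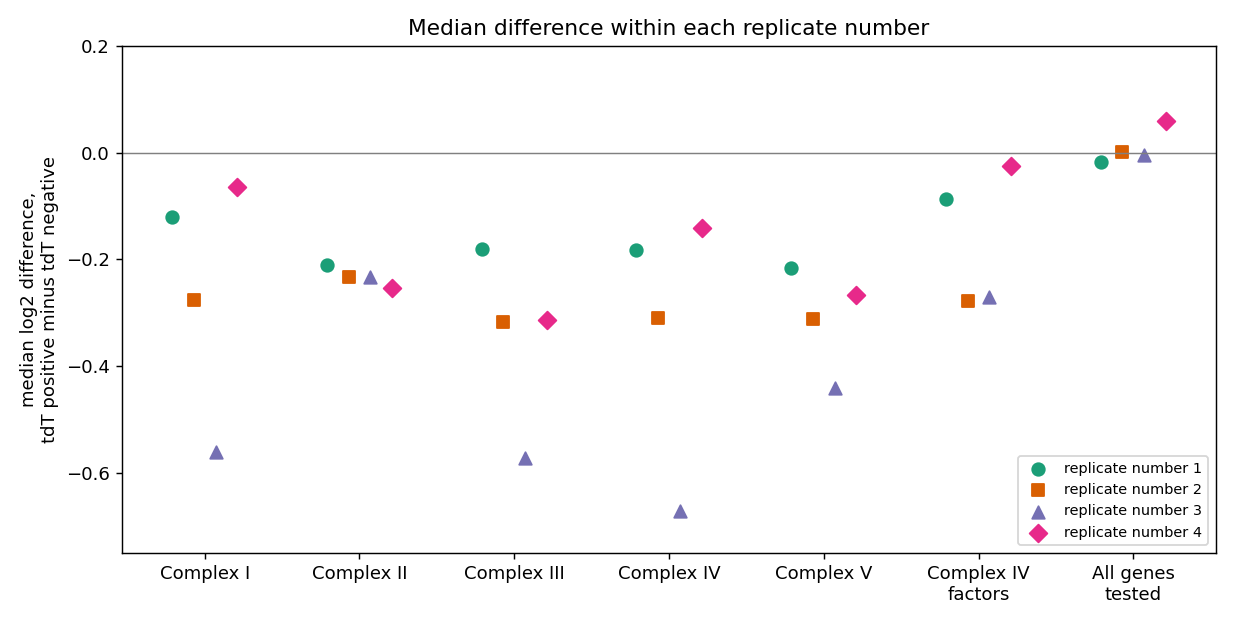
Median log2 difference (tdT positive minus tdT negative) over the members of each class within each replicate number, with the median over all 12610 genes tested on the right. Complex II is at -0.25 to -0.21 in every number, while complexes I, III, IV and V are lowest in number 3.

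Gene length moved with the difference in several numbers. The members are short, with a median length of 756 bases against 2872 over all genes tested. Among other genes above 500 and up to 1000 bases the median log2 difference was -0.083, -0.22, -0.38 and 0.080 in numbers 1 to 4, and among those over 4000 bases 0.025, 0.13, 0.13 and 0.054. Other genes of up to 500 bases were at -0.024, 0.0053, -0.029 and 0.057. Genes between 500 and 1000 bases were thus lower as a class in numbers 2 and 3 and less so in number 1. In number 4 the other genes showed no such slope, with medians of 0.053 to 0.080 in the 5 length classes, while the members were at -0.076, -0.10, -0.19 and -0.25 in the 4 classes up to 4000 bases (16, 39, 23 and 9 members). In every number and in each of these 4 classes the median of the members was below that of the other genes. From the shortest of these classes, 18.8, 25.6, 56.5 and 11.1% of the members were called lower with the block. Of the other genes, 6.4, 12.9, 8.31 and 6.72% were.

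**Figure D5:**
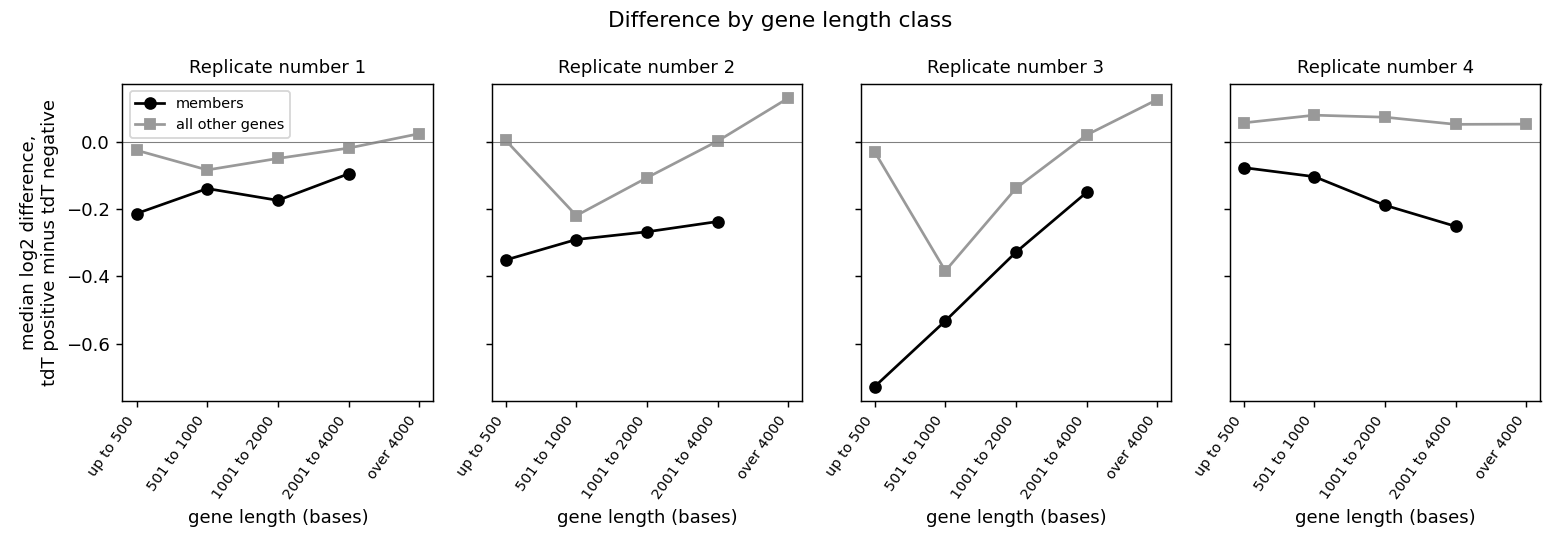
Median log2 difference (tdT positive minus tdT negative) within each replicate number for the members (black) and all other genes tested (grey), by gene length class in bases. The grey line climbs from the class that ends at 1000 bases upwards in numbers 2 and 3 and is flat in number 4, and the black line lies below it in each class up to 4000 bases.

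With a smooth trend on gene length taken out of each library, the members' differences were smaller in the 3 classes up to 2000 bases and about as large in the 9 members above 2000 and up to 4000 bases. The median over the members was -0.12, against -0.013 over all genes tested, and 72 of 88 members were below 0. By length class, from the shortest, the members' medians were -0.13, -0.068, -0.17 and -0.20 with the correction and -0.37, -0.27, -0.24 and -0.18 without it. Then 12 members fell, or 13.6%, where 7.95% of all genes tested were called lower, and 0 rose. Of the subunits of complexes I to V, 11.1, 25, 12.5, 7.69 and 35.7% fell with the correction. All 12 were among the 27 called without the correction: Ndufs8, Ndufv2, Ndufb5 and Ndufc2 of complex I, Sdhb of complex II, Uqcrc2 of complex III, Cox7a2 of complex IV, and Atp5a1, Atp5b, Atp5c1, Atp5o and Atp5f1 of complex V. Among members above 1000 bases, Atp5a1 was at -0.30 (adjusted p = 0.0236) and Atp5b at -0.27 (adjusted p = 0.0433), whereas Sdhd was at -0.15 (adjusted p = 0.0891), Ndufa9 at -0.16, Ndufa10 at -0.14 and Cox7a2l at -0.14, and these 4 were no longer called. Among short subunits, Ndufa4 was at -0.24 (adjusted p = 0.121), Uqcr10 at -0.23 (adjusted p = 0.0542), and Cox6a1 and Cox8a, not called in either fit, at 0.000115 and 0.063. With the correction and without replicate 3, 0 members passed, and the median over the members was -0.11.

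Among other genes of the pathway, few were called outside the list of mitochondrial membrane genes. Of all genes tested, 7.81% were called lower, against 2.63% of the assembly factors. Of the genes of other electron donors and ubiquinone synthesis, 4.55% were. Of 38 assembly factors of the 5 complexes tested, 1 fell, Ndufaf5, which modifies complex I (log2 fold change -0.40 with an SE of 0.10, adjusted p = 0.032), and the list's median was -0.12. Of 22 genes of other electron donors and of ubiquinone synthesis, 1 fell, Etfb, which carries electrons from fatty acid oxidation, at 23.5 ± 2.77 CPM in the tdT-positive group and 32.1 ± 8.07 CPM in the tdT-negative group (log2 fold change -0.43 with an SE of 0.091, adjusted p = 0.0238). Of 30 genes of the mitochondrial membranes, 9 fell, or 30%, and 0 rose, with a median of -0.24. These 9 include Slc25a4 and Slc25a5, the ADP/ATP carriers, at -0.38 (adjusted p = 0.0111) and -0.42 (adjusted p = 0.0151), and Timm17a, part of the inner membrane import channel, at -0.34 (adjusted p = 0.0147). With the length correction 6 of the 30 fell, or 20%, where 7.95% of all genes tested were called lower. Of 19 regulators of mitochondrial transcription and biogenesis tested, 0 passed in the edgeR fit with the block, and their median was -0.033. The transcripts of the factors whose letters were searched did not pass: Nrf1 was at 21.9 ± 2.65 CPM in the tdT-positive group and 20.9 ± 0.828 CPM in the tdT-negative group, Gabpa at 40.2 ± 2.51 CPM in the tdT-positive group and 41.2 ± 3.76 CPM in the tdT-negative group and Yy1 at 51.8 ± 2.12 CPM in the tdT-positive group and 51.9 ± 3.15 CPM in the tdT-negative group, with adjusted p between 0.649 and 0.984. Tfam, which packages and transcribes mitochondrial DNA, was at -0.20 (adjusted p = 0.112). Ppargc1b, a PGC-1 coactivator, was at 1.29 ± 0.176 CPM in the tdT-positive group and 2.76 ± 3.16 CPM in the tdT-negative group (adjusted p = 0.516). Its tdT-negative replicates 1 to 4 had 1.25, 1.33, 0.972 and 7.5 CPM, so the higher mean came from replicate 4. Ppargc1a was below the filter.

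Markers of other cell types and of the cell cycle differed between the groups in the same libraries. Over all genes tested, 7.81% were called lower and 8.03% higher. Of 9 stromal markers tested, 8 fell, with summed levels of 60.3 to 147 CPM in the tdT-positive group and 248 to 2229 CPM in the tdT-negative group. Of 5 monocyte markers 3 fell (8.35 to 10.6 CPM in the tdT-positive group and 29.1 to 166 CPM in the tdT-negative group), and of 6 osteoclast markers 3 fell (59.2 to 112 CPM in the tdT-positive group and 78.6 to 1373 CPM in the tdT-negative group). Of 6 neutrophil markers tested, 4 fell and S100a8 rose, and the sums were 372 to 531 CPM in the tdT-positive group and 84.9 to 643 CPM in the tdT-negative group, while Mpo, Elane, Ly6g and Retnlg were below the filter. Both dendritic cell markers tested fell (5.08 to 9.55 CPM in the tdT-positive group and 20.2 to 33.3 CPM in the tdT-negative group), and Flt3, Zbtb46, Xcr1 and Siglech were below the filter. Of 10 cell-cycle genes, 4 fell: Top2a, Rrm2, Ccna2 and Birc5, with summed levels of the 10 genes of 103 to 139.8 CPM in the tdT-positive group and 123 to 171 CPM in the tdT-negative group. Of the 9 macrophage markers, Mertk rose. No listed marker was without counts in all 8 libraries. The part of these cells in the difference of the respiratory chain genes was not tested.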

How the data were processed

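The authors deposited whole-number counts per gene, whose columns carry the identifiers of the sample descriptions; groups come from the titles. Per the labels, a stranded mRNA kit was used on 220 ng of RNA. The submitters' processing notes name STAR and mm10; the sources used here give no version, counter, annotation or strand setting, so overlapping genes are uncertain. The gene lengths used are those deposited by the authors.

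Genes were filtered with edgeR 4.0.16 (filterByExpr, minimum count 10, minimum total 15), scaled by TMM and tested with the quasi-likelihood test (group only, which is the planned test, and blocked on replicate number), with Benjamini-Hochberg adjustment over 12610 genes and a threshold of 0.05. SEs were derived from the fold change and the F statistic. Libraries of the same number, numbered in the titles, deviated together over all genes (r = 0.627, 0.279, 0.619 and 0.558). The highest r with a library of another number was 0.146, 0.227, -0.0386 and 0.227. Over the members alone the same-number r was 0.0522, 0.606, 0.109 and 0.0378. The labels do not say what a number shares, so p-values reflect only how these samples vary, which may be technical. No library repeated another (chi-square per degree of freedom 54 to 759). Log2 differences within numbers use log2 CPM with a prior count of 2. The length correction is a lowess trend (span 0.3) of each library on log2 length, as an offset. Alternatives were other scalings, DESeq2 1.42.0, limma 3.58.1 voom, filters, thresholds and leaving out libraries. The fits were tested on simulated data. Members and gene lists were chosen with earlier results of these data known. Named members were Cycs, the Sdh genes, the highest per length and the 4 smallest p of complexes I, III, IV and V, the extremes of fold change, isoform sets and 4 assembly factors; other members are named where a small count of calls includes them or, after their values were seen, to give ranges. A member and a marker are not reported here.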

Additional observations from a re-analysis of the deposited data

Results flagged for a closer look

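In 13 of 90 groups of 4 libraries checked, 1 library lay far from the other 3 by Dixon's criterion. A single group meets it by chance about 1 time in 20. The groups come from the same libraries and the sums contain members also checked singly, so 13 of 90 cannot be set against that rate. In 12 of the 13 the library set apart was tdT-negative replicate 3, at the top of its group. There the summed level of complex I was 1831 CPM, against 1364 to 1403 CPM in the remaining 3 of its group. Complex IV summed to 1284 CPM, against 983 to 992 CPM in the remaining 3 of its group, and its factors to 335 CPM, against 281 to 284 CPM in the remaining 3 of its group. The single members were Cox4i1 at 289.5 CPM, against 209 to 218 CPM in the remaining 3 of its group, Cox6b1 at 149.6 CPM, against 108 to 113 CPM in the remaining 3 of its group, Cox8a at 131 CPM, against 102 to 106 CPM in the remaining 3 of its group, Cox7a2 at 149.8 CPM, against 92.5 to 101 CPM in the remaining 3 of its group, and Cox6c at 67.5 CPM, against 49 to 51.1 CPM in the remaining 3 of its group. In complexes I and III they were Ndufb8 at 104 CPM, against 80 to 83.8 CPM in the remaining 3 of its group, Ndufv2 at 78.3 CPM, against 60.9 to 63.3 CPM in the remaining 3 of its group, Uqcrq at 88.5 CPM, against 55 to 60.3 CPM in the remaining 3 of its group, and Uqcrc1 at 202 CPM, against 162 to 168 CPM in the remaining 3 of its group. Cox11 in tdT-negative replicate 4 was at 10.2 CPM, against 8.01 to 8.34 CPM in the remaining 3 of its group. No sum or named member of complexes II or V was set apart in this way. Without tdT-negative replicate 3 and without the block, the median log2 fold change over the members was -0.16, with 81 of 88 below 0.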

How the results depend on the processing

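Without the block, 0 members passed under DESeq2 size factors, library totals, upper-quartile factors, limma voom, no filter, a filter of 1 CPM in 4 libraries (84 members tested), a threshold of 0.01 and without any single library, and 4 passed at a threshold of 0.1 and 18 in the DESeq2 Wald test. With the replicate block 27 passed, and 24 with library totals alone, 44 in the DESeq2 Wald test, 12 with the length correction, 27 without Rn45s and Lars2, 47 at a threshold of 0.1 and 0 at 0.01. With the block and a replicate number missing from both groups, 8, 0, 1 and 51 passed (numbers 1 to 4). All called members were lower. Of all genes tested, 7.81% were called lower with the block, 7.95% with the length correction as well, and 4.71% in the DESeq2 Wald test without the block. With the block and without replicates 1 to 4 in turn, 4.72, 2.01, 0.993 and 10.4% were. For the remaining settings the share of all genes is not given here, so their counts of members cannot be read against it. Medians of most complexes moved by less than their SD over numbers, a wide margin where the numbers differed much, as in complexes I and IV. With the block, the length correction took the median of complex I from -0.24 to -0.11. It took that of complex IV from -0.35 to -0.17, so staying within this margin does not show that a median was stable. The median of complex II, whose SD is small, was -0.32 with library totals, -0.27 with upper-quartile factors, -0.32 with totals and the block, -0.19 with the length correction (-0.21 also without replicate 3, chosen after seeing the data) and -0.28 to -0.20 with libraries left out. With the length correction the medians were -0.15 for complex V and -0.024 for the complex IV factors, and without replicate 3 as well -0.11 for complex IV and -0.18 for complex V. Library totals put the median of all genes at -0.076. Signs changed in Cox11 (-0.065 with totals, -0.017 with upper-quartile factors, -0.059 with totals and the block, -0.066 to 0.10 with single libraries left out, -0.022 with the block and without replicate 3, -0.021 with length correction without replicate 3), Cox15 (-0.037, -0.027 with totals and the block, -0.029 with length correction, -0.079 with it and without replicate 3, -0.047 to 0.091 with single libraries left out, -0.015 with the block and without replicate 3), Cox6a1 (0.000115 with length correction) and Cox8a (0.063, and 0.040 without replicate 3), none of them called; the cause was not tested. Placing members by symbol alone left complex I at -0.24 and complex IV at -0.25 with the block. At these depths the members below the filter could not be compared.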
